A study of Mus musculus with 9 samples.

Results

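The AP-1 factors measured here were 8 genes: Fos, Fosb, Fosl1 and Fosl2 of the FOS family, Jun, Junb and Jund of the JUN family, and Atf3, a related factor of the ATF family. They were chosen by name, with earlier results of these data known. All 8 were found among the 53465 mouse genes counted and passed the filter on low counts. RNA came from the border zone of the infarct in ligated hearts, whereas sham hearts had no ligation and so no infarct. There were 3 libraries from each of 3 groups. All groups were NOD-SCID mice, which lack mature T and B cells. One group had sham surgery, one had ligation of a coronary artery, and one had the same ligation followed by implantation of cells named FOXO3-GE-MPCs, called the cell group below. In the cell group, the source field of replicates 2 and 3 names other FOXO members, whereas titles and treatment fields name FOXO3, which was followed. Age, sex, the time after surgery and whether each library is a separate animal are not given in the sources used here. The p-values therefore measure the spread between these libraries, which may be in part technical.

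AP-1 is a transcription factor made of pairs of basic leucine zipper proteins. JUN proteins can pair with one another or with FOS proteins, FOS proteins need a JUN-type partner to bind DNA well, and ATF3 can pair with JUN proteins and often represses transcription. Most of these genes are immediate-early genes: their transcripts appear within minutes of a growth factor, stretch or stress signal passed on by MAP kinases and serum response factor, and decay fast. In the heart, Fos and Jun are classical markers of acute load and ischaemia, and Atf3 is a classical marker of cell stress. Transcript counts do not show phosphorylation or DNA binding, and in bulk tissue fewer cells of a type and less RNA per cell cannot be told apart.

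Library totals ran from 4549268 to 7515052 gene counts, so that 3 counts corresponded to 0.375 to 0.639 CPM (counts scaled to a common library size with TMM factors). The file headers of sham replicates 1 and 2 share a name stem, as do those of ligation replicates 2 and 3. Between replicates of a group the mean chi-square per gene was 1.97 to 3.98, above sampling noise for each pair, and libraries made separately from 1 animal could differ as much. Cardiomyocyte markers were high in all groups, with summed levels of 45705 to 60816 CPM, whereas the B cell marker Ms4a1 had 0 counts in every library. The share of counts from mitochondrially encoded genes was 19.1% to 19.9% in sham, 12.5% to 13.9% in ligation and 14.3% in each cell library.

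Because 6 of the 8 genes rose together in the cell group, the 120 bases upstream of their RefSeq start sites are shown (GRCm38.p6, the patch release of the mm10 assembly named in the submitters' processing notes). Windows were at hand for 7 of the 8 members. RefSeq starts can differ from the gene bounds of GENCODE M21. The windows of Atf3 and Fosl2 lie inside these bounds, and so not at the outer end of the gene. That of Jund, which is not shown, ends at 70697738, before the gene start at 70698949. The sequences lie at chr12:85473770-85473889 (plus strand) for Fos, chr7:19310046-19310165 (minus strand) for Fosb, chr5:32136352-32136471 (plus strand) for Fosl2, chr4:95052223-95052342 (minus strand) for Jun, chr8:84978749-84978868 (minus strand) for Junb and chr1:191183334-191183453 (minus strand) for Atf3, and each reads 5′ to 3′ on the gene's strand. Capitals mark exact matches, on either strand, of TGACG (the core shared by cyclic AMP response elements), TGACNTCA (the full element with any middle base), CCAAT and TATAAA.
Fos: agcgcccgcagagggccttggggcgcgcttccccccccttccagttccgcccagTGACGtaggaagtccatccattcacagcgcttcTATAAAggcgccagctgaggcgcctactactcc
Fosb: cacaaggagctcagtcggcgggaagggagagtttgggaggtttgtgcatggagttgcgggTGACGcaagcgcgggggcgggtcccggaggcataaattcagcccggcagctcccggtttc
Fosl2: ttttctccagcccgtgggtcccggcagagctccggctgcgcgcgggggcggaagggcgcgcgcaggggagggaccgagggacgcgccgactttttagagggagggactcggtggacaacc
Jun: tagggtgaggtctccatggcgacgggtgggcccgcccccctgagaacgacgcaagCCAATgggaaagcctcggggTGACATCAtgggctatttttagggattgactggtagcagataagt
Junb: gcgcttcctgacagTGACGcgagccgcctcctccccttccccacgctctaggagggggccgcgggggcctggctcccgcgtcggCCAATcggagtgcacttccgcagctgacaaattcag
Atf3: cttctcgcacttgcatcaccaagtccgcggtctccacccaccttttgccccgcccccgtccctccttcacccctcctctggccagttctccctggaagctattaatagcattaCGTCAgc
TGACG stands in the sequences of Fos, Fosb, Junb and Atf3, and in 11.7% of the same stretch over all 32851 windows of the table. In Fos it runs from base -66 to -62 relative to the start and is followed by a TATAAA from -33 to -28, a motif held by 6.34% of stretches. Jun holds TGACATCA from -45 to -38, and TGACNTCA occurs in 5.07% of stretches. CCAAT stands in Jun and Junb and in 21.3% of stretches. TGACG and TGACNTCA were picked after the sequences had been read, and the letters of TGACG are also part of the full element TGACGTCA. The AP-1 site TGACTCA, the element TGACGTCA and the CArG box of serum response factor have no match in any of the 7 stretches, against 2.30%, 1.24% and 0.749% of all stretches. Sites further upstream than the windows were not searched, so these values say nothing about them.

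Fos was the member with the highest fold change in each of the 3 comparisons. It codes for the founding FOS protein and lies at chr12:85473890-85477273 on the plus strand, with 2352 exonic bases. The sham libraries held 2.67, 3.62 and 3.02 CPM. The ligation libraries held 10.01, 8.54 and 8.0 CPM. The cell group libraries held 25.8, 23.9 and 25.2 CPM. The lowest ligation library was thus above every sham library, and the lowest cell library above every ligation library. Means were 3.10 ± 0.483 (SD, n = 3), 8.85 ± 1.04 and 24.96 ± 1.001 CPM. Fos rose 2.79-fold after ligation (1.48 ± 0.198 SE as a log2 fold change; adjusted p 4.67e-06 from edgeR's quasi-likelihood fit, adjusted by Benjamini-Hochberg over 13825 genes). It rose a further 2.86-fold with cells over ligation (1.51, SE 0.139, adjusted p 1.84e-07, same edgeR test). Among the 13825 genes it ranked 35 from the top by fold change in that comparison. Over sham, Fos was 7.98-fold higher in the cell group (edgeR adjusted p 1.30e-11).

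**Figure D1:**
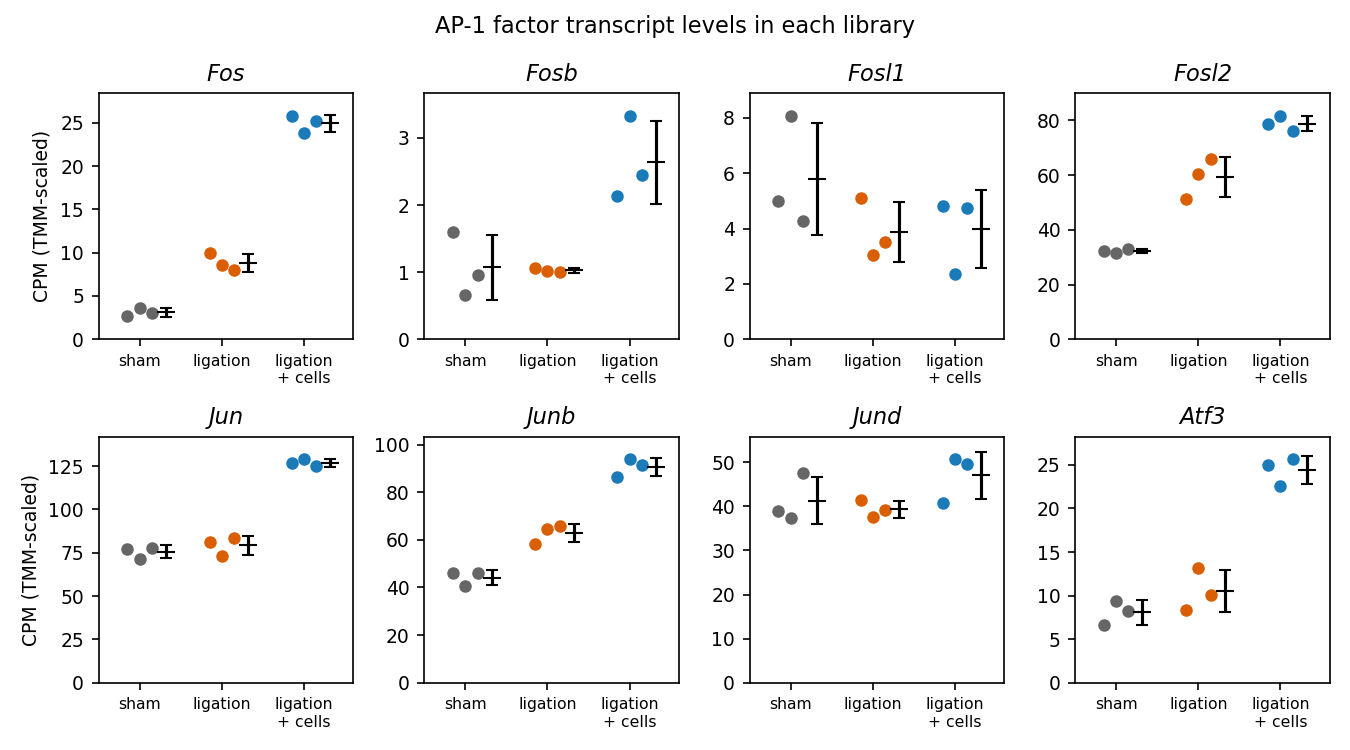
TMM-scaled CPM of each AP-1 factor in the 3 sham, 3 ligation and 3 cell group libraries, with 1 point per library and the mean ± SD (n = 3) beside it, on linear axes that start at 0. Fos, Fosb, Fosl2, Jun, Junb and Atf3 lie higher in all 3 cell libraries than in all 3 ligation libraries, whereas the groups overlap for Fosl1 and Jund.

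Jun, which codes for the JUN protein that pairs with all FOS proteins, was higher in the cell group than in both other groups and did not pass between ligation and sham. It is a gene of 1 exon at chr4:95049034-95052222 on the minus strand. Sham libraries were at 77.4, 71.2 and 77.9 CPM, and ligation libraries at 81.2, 73.2 and 83.4 CPM. All 3 cell group libraries stood above these, at 126.7, 128.9 and 124.7 CPM. The difference between ligation and sham was 0.07 on the log2 scale (SE 0.0678, adjusted p 0.451, edgeR), and the ranges overlapped. With cells Jun rose 1.60-fold over ligation (log2 fold change 0.68, SE 0.0648, adjusted p 3.54e-07, edgeR) and 1.68-fold over sham (adjusted p 1.08e-08, edgeR).

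Atf3, the stress-induced factor, showed a similar order of groups at a lower level. Its gene lies at chr1:191170296-191218039 on the minus strand. Sham libraries held 6.59, 9.39 and 8.25 CPM and ligation libraries 8.31, 13.2 and 10.1 CPM, so these groups overlapped. The cell group held 24.96, 22.6 and 25.6 CPM, above both. Atf3 did not pass in ligation against sham (log2 difference 0.40, SE 0.183, adjusted p 0.0931, edgeR), and without ligation replicate 1 it did (0.51, adjusted p 0.0355, edgeR). Without ligation replicate 2 the difference was 0.21 (adjusted p 0.441, edgeR). With cells it rose 2.28-fold over ligation (log2 fold change 1.19, SE 0.153, adjusted p 1.82e-05, edgeR) and 3.01-fold over sham (adjusted p 1.09e-07, edgeR).

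Junb and Fosl2 rose in both steps. Junb, a JUN protein that can restrain the action of JUN itself, lies at chr8:84974484-84978718. It was at 45.9, 40.5 and 46.0 CPM in sham, at 58.4, 64.7 and 65.6 CPM in ligation, and at 86.5, 93.8 and 91.5 CPM in the cell group. No 2 groups overlapped. Junb rose 1.43-fold after ligation (log2 fold change 0.52, SE 0.076, adjusted p 1.50e-05, edgeR) and again 1.43-fold with cells (0.52, SE 0.0698, adjusted p 3.15e-05, edgeR). Fosl2, which codes for FRA-2, a FOS protein without the strong activating end of FOS, lies at chr5:32135801-32157842. Its libraries were at 32.4, 31.5 and 33.0 CPM in sham, at 51.4, 60.5 and 65.8 CPM in ligation, and at 78.7, 81.7 and 76.2 CPM with cells. These 3 groups did not overlap either. Fosl2 rose 1.85-fold after ligation (log2 fold change 0.89, SE 0.087, adjusted p 6.25e-08, edgeR) and 1.32-fold with cells (0.40, SE 0.0775, adjusted p 0.00153, edgeR). Over sham, Junb was 2.05-fold and Fosl2 2.44-fold higher in the cell group (edgeR adjusted p 4.19e-10 and 1.33e-10).

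Fosb was near the limit of detection, with 4 to 24 counts per library. FOSB is a close relative of FOS whose truncated splice form builds up under repeated stimulation, and these gene-level counts do not separate its splice forms. Its CPM were 1.60, 0.659 and 0.952 in sham and 1.07, 1.01 and 1.0 in ligation, and the 2 groups overlapped. The cell group was above both, at 2.13, 3.33 and 2.45 CPM. With cells Fosb rose 2.55-fold over ligation (log2 fold change 1.35, SE 0.405, adjusted p 0.0381, edgeR). That call was lost in 9 of 19 alternatives, among them the fits without any 1 ligation library (adjusted p 0.0727, 0.11 and 0.125), without cell replicate 2 (0.145) or 3 (0.0662), and DESeq2's Wald test (0.119), all edgeR unless named. Over sham it was 2.46-fold higher (edgeR adjusted p 0.0148), and this call was lost with DESeq2 (0.0511) and in edgeR fits without sham replicate 2 (0.0764) or cell replicate 2 (0.0688).

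Jund and Fosl1 passed in none of the 3 comparisons. Jund, the JUN family member that is expressed constitutively in most tissues, was at 37.4 to 47.5 CPM in sham, 37.5 to 41.3 CPM in ligation and 40.9 to 50.6 CPM with cells. Its difference between cells and ligation was 0.26 on the log2 scale (SE 0.0987, adjusted p 0.106, edgeR), and it passed without cell replicate 1 (0.35, adjusted p 0.0364, edgeR) but was 0.20 without cell replicate 2 (adjusted p 0.295, edgeR). Against sham it passed without sham replicate 3, without cell replicate 1 and with library totals alone (edgeR adjusted p 0.0277, 0.037 and 0.00702), and it was 0.11 without cell replicate 2 (adjusted p 0.446, edgeR). Fosl1, which codes for FRA-1, was at 4.29 to 8.07 CPM in sham, 3.04 to 5.11 CPM in ligation and 2.36 to 4.82 CPM with cells. Its log2 difference was -0.61 in ligation against sham (SE 0.318, adjusted p 0.141, edgeR) and 0.07 in cells against ligation (SE 0.328, adjusted p 0.926, edgeR). Both genes are uncertain. Jund shares 877 of its 1668 exonic bases with Gm11175 on the opposite strand, and Fosl1 shares 1163 of its 2033 with Ccdc85b on the opposite strand. Whether counting used strand is not given in the sources used here, and without strand, reads from both genes of a pair cannot be told apart. Gm11175 had 0 counts in all libraries, and Ccdc85b was at 57.1 to 80.6 CPM on average in the 3 groups.

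Read against all genes, 3 of 8 members rose after ligation, where 20.1% of all 13825 genes tested were called higher and 38.2% were called in either direction. With cells over ligation, 6 of 8 rose and 0 fell, against 4.19% of all genes called higher, 5.69% called lower and 9.87% called in either direction. The remaining 2 had unadjusted p-values of 0.0156 for Jund and 0.829 for Fosl1 in edgeR. In the cell group over sham, 6 of 8 rose, against 21.0% called higher, 20.0% called lower and 40.9% called in either direction. CPM ranges did not overlap for 3, 6 and 6 members in the 3 comparisons, all higher in the first-named group. Of all genes, 25.0%, 13.2% and 25.4% had ranges that did not overlap and were higher, and 47.6%, 27.2% and 49.8% had ranges that did not overlap in either direction. Scaled by library totals alone, 4966 of 6312 called genes were higher after ligation in place of 2783 of 5277, 436 of 1363 were higher with cells over ligation in place of 579 of 1365, and 4612 of 6310 were higher with cells over sham in place of 2899 of 5661. The median log2 fold change of the 8 members was 0.23, 0.60 and 1.16, beside 0.01, 0.00195 and -0.01 for all genes tested. The comparisons share libraries, the first and second with the ligation group in opposite roles, and are set side by side rather than correlated. The members and the lists below were chosen with earlier results of these data known. These shares and those below therefore describe them and are no independent test.

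**Figure D2:**
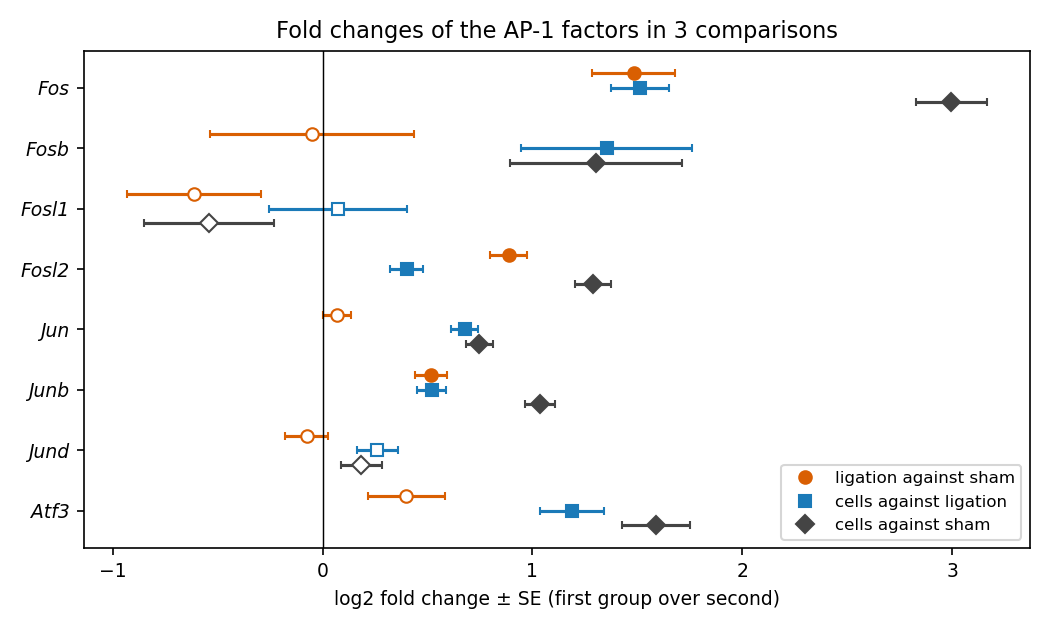
Log2 fold change ± SE from the edgeR fit for each AP-1 factor, with circles for ligation against sham, squares for cells against ligation and diamonds for cells against sham. Filled symbols passed an adjusted p of 0.05: 3 circles, 6 squares and 6 diamonds are filled, and Fosl1 and Jund have open symbols throughout.

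Per kilobase of exon, the JUN family made up most of the AP-1 transcripts in each group. Lengths were the exonic bases of a gene merged over all its transcripts, from 1668 for Jund to 9680 for Fosl2. A gene whose main transcript is shorter than its merged length gets too low a value. In sham, Jund (24.7 ± 3.25 CPM per kilobase, SD, n = 3), Jun (23.7 ± 1.18) and Junb (19.2 ± 1.37) stood above Atf3 (3.75 ± 0.655), Fosl2 (3.34 ± 0.0807), Fosl1 (2.84 ± 0.991), Fos (1.32 ± 0.205) and Fosb (0.172 ± 0.0773). Jund and Jun, and likewise Atf3, Fosl2 and Fosl1, did not differ beyond their spread there. In the cell group the order was Jun (39.7 ± 0.647), Junb (39.4 ± 1.61), Jund (28.2 ± 3.22), Atf3 (11.3 ± 0.738), Fos (10.6 ± 0.426), Fosl2 (8.15 ± 0.285), Fosl1 (1.96 ± 0.690) and Fosb (0.422 ± 0.0996). Jun and Junb, and Atf3 and Fos, were within their spread of each other. The levels of Jund and Fosl1 carry the uncertainty of their shared bases. Over fewer bases the same holds for Jun, which shares 232 with Junos, and Junb, which shares 173 with Prdx2, both on the opposite strand. Prdx2 was on average at 374 CPM in sham, 340 CPM in ligation and 319 CPM with cells. Summed over the 8 members, the level was 75.6 to 83.7 CPM per kilobase in sham, 91.2 to 94.97 in ligation and 135 to 142 with cells. Fos took 1.46% to 2.04% of that sum in sham, 3.58% to 4.64% in ligation and 7.13% to 8.12% with cells, whereas the share of Jun stayed between 25.2% and 31.2% in all 9 libraries. The ratio of Fos to Jun per kilobase was 0.0561 ± 0.0116 (SD, n = 3) in sham, 0.152 ± 0.0194 in ligation and 0.267 ± 0.014 with cells, and no 2 groups overlapped.

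**Figure D3:**
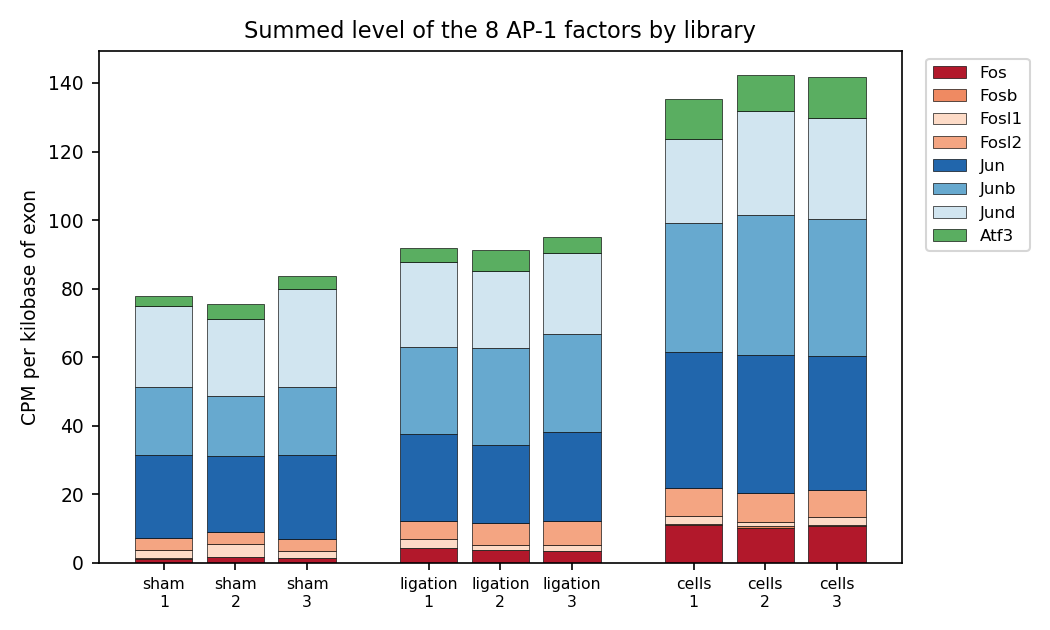
Summed level of the 8 AP-1 factors in each of the 9 libraries, in CPM per kilobase of exon on a linear axis from 0, with 1 colour per gene. The 3 cell group bars reach 135 to 142, above the ligation bars at 91.2 to 94.97, and the dark red Fos segment grows from sham to ligation to cells.

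The genes whose profile over the 9 libraries was most like that of a member were named by Pearson's r of log2 CPM among 13794 genes, as a description. The 9 points fall into 3 groups, so these values mostly follow the group means. Most like Fos were Nr4a1 (r = 0.993), a nuclear receptor and immediate-early gene, Gm32849 (0.99) and Acta1 (0.987), the skeletal actin of fetal and loaded heart muscle. Nr4a1 went from 12.0 ± 0.421 (SD, n = 3) in sham to 26.8 ± 1.95 in ligation and 69.0 ± 2.16 CPM with cells. Most like Jun were Stard10 (0.984), Arl13b (0.98) and Btg2 (0.976), an antiproliferative immediate-early gene. Atf3 was nearest to Ppp1r3b (0.969), Ctnnb1 (0.967) and Ppp2r3a (0.965), Junb to Lgr4 (0.987), Slc25a32 (0.986) and Lpgat1 (0.986), and Fosl2 to Fbxo40 (0.994), Slc25a1 (0.994) and Gbe1 (0.99). For the 3 members with few or contested counts the nearest genes were Brox (0.983), Rassf3 and Dars for Fosb, Bambi-ps1 (0.935), Elp6 and Bckdk for Fosl1, and Dennd6a (0.923), Tbc1d15 and Zfp869 for Jund. Among the members, Fosl2 and Junb were most alike (r = 0.971), and Fosl1 was negatively related to each of the others (-0.60 to -0.34).

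Of 27 other immediate-early genes tested, 14 rose and 1 fell with cells over ligation, against 4.19% and 5.69% of all genes, and 16 rose and 2 fell after ligation, against 20.1% and 18.0%. With cells the largest increases were in the zinc finger factors Egr2 (from 4.01 ± 0.548 to 20.04 ± 0.797 CPM, SD, n = 3), Egr1 (from 27.4 ± 2.96 to 127 ± 6.88 CPM) and Egr3 (from 6.35 ± 0.756 to 19.8 ± 1.27 CPM), with edgeR adjusted p-values of 8.23e-08, 9.35e-13 and 3.50e-06. Btg1, another antiproliferative gene, fell by 0.26 on the log2 scale (adjusted p 0.0167, edgeR), a call lost without ligation replicate 3 or cell replicate 3 (edgeR adjusted p 0.123 and 0.0942) and with DESeq2 (0.0521). After ligation the largest increases were in Ccn2 (connective tissue growth factor), Egr3 and Egr2, with log2 fold changes of 2.40, 2.34 and 1.59. Klf4 and Klf2 fell by 0.28 and 0.21 on that scale, and these 2 calls were lost when library totals alone set the scale (edgeR adjusted p 0.304 and 0.834). That of Klf2 was also lost without sham replicate 3 or ligation replicate 2 (0.0599 and 0.0753, edgeR). In the cell group over sham 21 rose and 1 fell, against 21.0% and 20.0% of all genes, with Egr3, Egr2 and Egr1 higher by 3.99, 3.89 and 2.79 on the log2 scale. The fall, of Btg1, was 0.21 on that scale (adjusted p 0.0202, edgeR). It was lost with library totals alone (edgeR adjusted p 0.598), without a filter (0.0531, edgeR) and with DESeq2 (0.0542). Edge cases were also the edgeR fits without sham replicate 1 or 3 or cell replicate 3 (0.0606, 0.0534 and 0.0964), where the call was lost.

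Many feedback inhibitors of MAP kinases are themselves induced by the signals that induce Fos. The list of these genes also held Zfp36, Zfp36l1, Zfp36l2 and Tsc22d3, which are not MAP kinase phosphatases. It gave 4 of 18 tested genes higher and 1 lower with cells over ligation, against 4.19% and 5.69% of all genes. Dusp1, a nuclear phosphatase of p38 and JNK, rose from 76.2 ± 7.49 to 135 ± 4.79 CPM (SD, n = 3, adjusted p 8.22e-08, edgeR) and had not differed past the threshold after ligation (-0.10 on the log2 scale, adjusted p 0.327, edgeR). Log2 fold changes were 0.65 for Dusp8, 0.42 for Dusp16 and 0.37 for Zfp36, which speeds the decay of short-lived mRNAs (edgeR adjusted p 0.000144, 0.00889 and 0.016). The call of Dusp16 was lost without ligation replicate 3 (edgeR adjusted p 0.0608), and without it 3 genes of the list were called. Zfp36l2 fell by 0.28, a call lost without ligation replicate 3 or cell replicate 2 (edgeR adjusted p 0.086 and 0.0621). After ligation 6 genes of this list rose and 3 fell, against 20.1% and 18.0% of all genes, led by Dusp5 and Tsc22d3 (log2 fold changes 1.04 and 0.99) and by Dusp7, which fell by 0.41 on the log2 scale. The other falls, of Spry1 and Spred2, were lost with library totals alone (edgeR adjusted p 0.138 and 0.132).

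Transcripts of the kinases and of the factors that act upstream gave 2 higher and 3 lower of 29 tested with cells over ligation, against 4.19% and 5.69% of all genes. Srf, the serum response factor that drives Fos transcription, stood at 107 ± 10.2 CPM (SD, n = 3) in sham, 134 ± 7.02 in ligation and 160 ± 9.85 with cells. It rose by 0.33 on the log2 scale after ligation (adjusted p 0.000969, edgeR) and by 0.26 with cells (adjusted p 0.0203, edgeR). The latter call was lost without ligation replicate 1 or 2 or without cell replicate 2 or 3 (edgeR adjusted p 0.0512 to 0.0882). Mapk10, a JNK of brain and heart, fell by 0.51 on the log2 scale after ligation (adjusted p 0.0154 in edgeR) and rose by 0.85 with cells over ligation (0.000676 in edgeR). The fall was lost without sham replicate 2 (edgeR adjusted p 0.0671), without ligation replicate 2 (0.0501) and with library totals alone (0.116). Rps6ka1, Mrtfa and Map2k3 fell by 0.68, 0.57 and 0.24 on the log2 scale with cells, and each of these calls was lost in at least 1 fit that left out a library. Without ligation replicate 3, without cell replicate 2 or without cell replicate 3, the list had 3 calls in place of 5. After ligation 5 genes of the list rose and 7 fell, against 20.1% and 18.0% of all genes. Mrtfa and Map2k3 were among those that rose, by 0.73 and 0.36 on the log2 scale (edgeR adjusted p 0.000634 and 0.000238). Among the falls, that of Mapk14 was lost with library totals alone (edgeR adjusted p 0.0691).

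Of the remaining basic leucine zipper factors, 1 of 25 tested rose and 5 fell with cells over ligation, against 4.19% and 5.69% of all genes. Creb1 rose by 0.33 on the log2 scale (adjusted p 0.0132, edgeR), and Maf, a factor abundant in macrophages, fell by 0.73 (edgeR adjusted p 4.44e-05). Batf2 fell by 1.12 on the log2 scale (adjusted p 0.0375, edgeR). The calls of Creb1 and Batf2 were each lost in at least 2 fits that left out a library, and the list had 2 or 3 calls without ligation replicate 1 or 2 or cell replicate 2. After ligation 13 rose and 1 fell, against 20.1% and 18.0% of all genes. The fall, of Batf2, was lost without sham replicate 1 (-0.77, adjusted p 0.0525, edgeR). The rises were led by Mafk (from 52.6 ± 7.23 to 134 ± 6.65 CPM), Cebpd and Jdp2, which codes for a repressive partner of JUN (log2 fold changes 1.35, 0.84 and 0.79). Of 16 tested genes of the integrated stress response, the pathway through ATF4 that can induce Atf3, 1 rose and 0 fell with cells over ligation, against 4.19% and 5.69% of all genes. Without a filter on low counts 2 were called. The 1 gene that rose was Vldlr (0.27 on the log2 scale, adjusted p 0.00221, edgeR). Atf4 itself did not pass (log2 difference 0.09, edgeR adjusted p 0.517), nor did Ddit3 (0.12, edgeR adjusted p 0.46). After ligation 6 of the 16 rose and 1 fell, against 20.1% and 18.0% of all genes, and 3 to 4 of them in all were called without sham replicate 1, without ligation replicate 1 and with DESeq2.

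Of 24 genes long described as AP-1 targets that were tested, 14 rose and 2 fell after ligation, against 20.1% and 18.0% of all genes. The falls, of Ets1 and Ccnd1, were lost with library totals alone (edgeR adjusted p 0.0605 and 0.775), and that of Ccnd1 in 7 further settings, among them DESeq2 and 4 fits without 1 library (without sham replicate 1 or 3, or ligation replicate 1 or 2). With cells over ligation 1 rose, 9 fell and 14 did not pass, against 4.19% of all genes higher and 5.69% lower. The median log2 fold change of the 24 was 0.58 after ligation and -0.13 with cells. With cells, Mmp9, which codes for gelatinase B, went from 4.04 ± 0.839 CPM in ligation (SD, n = 3) to at most 3 counts per library. Mmp3 (stromelysin) fell from 7.71 ± 0.945 to 2.27 ± 0.665 CPM and Spp1 (osteopontin) from 29.0 ± 2.04 to 14.3 ± 0.516 CPM (edgeR adjusted p 7.02e-05 and 5.60e-06). Timp1, Cd44, Hmox1, Tgfb1 and Vim also fell, by 0.18 on the log2 scale for Vim to 0.88 for Hmox1. The 1 gene that rose was Gja1, which codes for connexin 43 (0.24 on the log2 scale, adjusted p 0.00142, edgeR). After ligation Spp1 and Timp1 had risen by 3.60 and 2.43 on the log2 scale. In the cell group over sham 13 rose and 6 fell, against 21.0% and 20.0% of all genes. All 8 macrophage and monocyte markers also fell with cells over ligation, from a sum of 860 to 901 CPM to 358 to 373 CPM, and their part in the falls of these target genes was not tested.

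**Figure D4:**
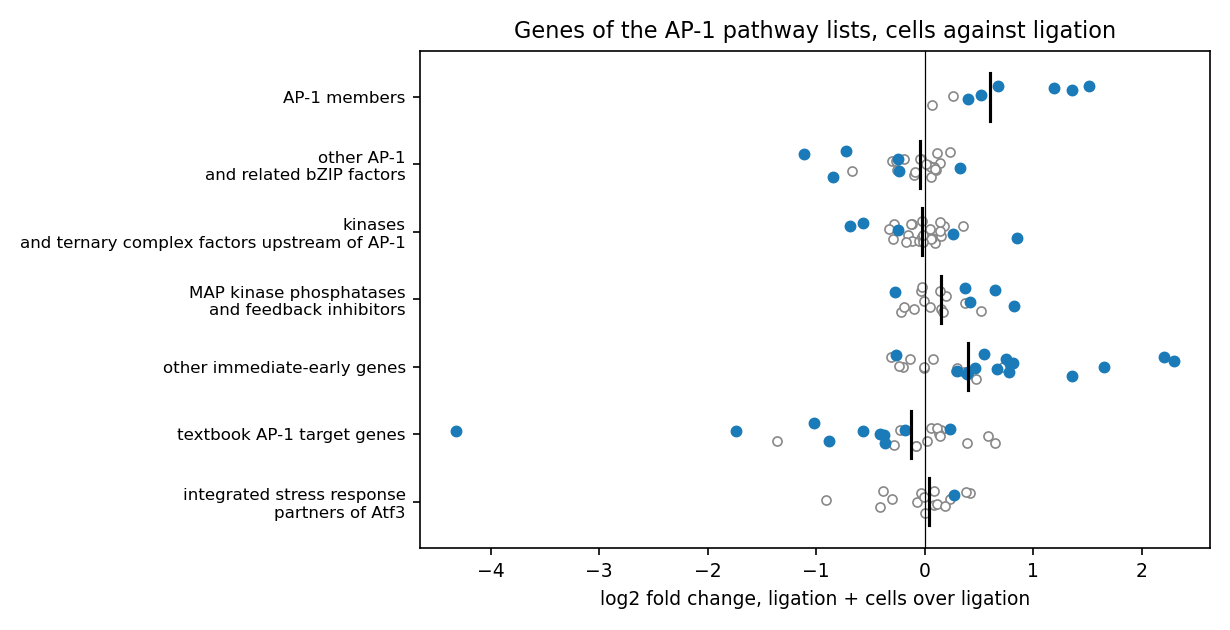
Log2 fold change of ligation plus cells over ligation for each tested gene of the AP-1 factors and 6 related lists, with filled points for genes past an edgeR adjusted p of 0.05, open points for the rest and a black bar at each list's median. Of the AP-1 factors 6 of 8 are filled, all to the right of 0, whereas 9 of the 10 filled AP-1 target genes lie to the left, the outermost being Mmp9 with at most 3 counts in any cell library.

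Markers of several cell types moved over the same libraries, and the counts of markers called with cells over ligation stand against 4.19% of all genes higher and 5.69% lower. All 8 macrophage and monocyte markers fell with cells over ligation, their summed level being 443 to 478 CPM in sham, 860 to 901 in ligation and 358 to 373 with cells. Of 4 tested neutrophil markers 3 fell with cells, with sums of 15.3 to 21.4 CPM in ligation and 5.76 to 6.80 with cells, and T, B and NK cell markers summed to at most 3.33 CPM in any library. Of 8 atrial markers 5 rose and 1 fell with cells over ligation, with sums of 577 to 668 CPM in sham, 998 to 1770 in ligation and 1818 to 2406 with cells. Nppa alone rose by more than that sum did after ligation, at 107 ± 34.4 CPM (SD, n = 3) in sham, 895 ± 369 in ligation and 792 ± 359 with cells, whereas Myl7, Myl4 and Sln fell after ligation by 0.68, 0.46 and 0.25 on the log2 scale. Stard10, the gene most like Jun, is one of those 8. Myl7, the atrial light chain, was at 157 ± 5.54 (SD, n = 3) in sham, 98.8 ± 9.67 in ligation and 299 ± 14.8 CPM with cells. Cardiomyocyte markers summed to 58885 to 60816 CPM in sham, 45854 to 48370 in ligation and 45705 to 46740 with cells. Fibroblast markers summed to 2045 to 2099 CPM in sham, 3264 to 3326 in ligation and 3174 to 3254 with cells. Endothelial markers summed to 3629 to 3718, 2457 to 2526 and 2548 to 2678 CPM in the same order, and smooth muscle and pericyte markers to 1775 to 1829, 1262 to 1289 and 1270 to 1300 CPM. These 4 sums thus shifted between sham and ligation, over the same libraries in which Fos, Junb and Fosl2 rose. After ligation all 8 mesothelial markers rose, 7 of 8 endothelial markers fell and 7 of 8 macrophage markers rose, against 20.1% of all genes higher and 18.0% lower. Mesothelial sums were 39.5 to 51.97 CPM in sham, 244 to 283 in ligation and 203 to 205 with cells, and erythroid sums 872 to 919, 1499 to 1599 and 663 to 680 CPM. Neutrophil sums in sham were 40.2 to 46.6 CPM. The part of these shifts in the levels of the AP-1 factors was not tested.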

How the data were processed

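RNA sequencing counts from 9 libraries were used. The authors deposited raw read counts per Ensembl gene, 1 file per library. TRIzol extraction and an NEBNext Ultra library kit are named in the labels' protocols. The submitters' processing notes name mm10. The aligner, counter and strand setting are not given in the sources used here, and the last lines carry htseq-count's names. These lines stayed out of library sizes: reads outside genes were 4.14% to 4.91% and ambiguous reads 8.09% to 8.72% of each library.

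Symbols were attached to 53274 of 53465 gene IDs, and exon lengths, overlaps and coordinates came from GENCODE M21 (GRCm38). Genes were filtered with filterByExpr, scaled with TMM, and fitted in 1 model with a coefficient for each group (edgeR 4.0.16, R 4.3.3, glmQLFit and glmQLFTest, two-sided, 6 residual degrees of freedom). P-values were adjusted by Benjamini-Hochberg over 13825 genes, with a threshold of 0.05. SE is the log2 fold change over the square root of F. The pipeline was tested on simulated data. The alternatives were other scalings and filters, DESeq2 1.42.0 and limma-voom (limma 3.58.1), 2-group fits, a replicate block, removal of mitochondrial genes, and each library left out. Summing libraries with a shared header stem was added after seeing the data.

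The members and lists were chosen with earlier results of these data known. Besides the members, up to 3 called genes per direction with a mean of at least 1 CPM were named from each list and comparison, by fold change, with other list genes named after their values were seen. Some genes that the rule gave are not reported here. The 3 genes most like each member were named by Pearson's r of log2 CPM (prior count 2). Reads from the implanted cells were neither analysed nor separated here. Any that were counted under mouse genes are part of the cell group values. Errors of CPM are SDs over 3 libraries, and depth limits cover counting error only. Figures used matplotlib 3.10.9.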

Additional observations from a re-analysis of the deposited data

How the results depend on the processing

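Fos, Fosl2 and Junb passed in all 3 comparisons, and Jun and Atf3 in both comparisons of the cell group, under all 19 alternatives run for each, with the same sign. With library totals alone, which put the median gene 0.20 higher in ligation than in sham on the log2 scale, 5 members passed in ligation against sham in place of 3: Jun (0.26, edgeR adjusted p 0.00403) and Atf3 (0.59, edgeR adjusted p 0.0128) were added. In cells against sham 7 passed in place of 6, Jund being added (0.34, edgeR adjusted p 0.00702). The cause was not tested beyond that shift.

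Members called ran over fits without 1 library from 3 to 4 in ligation against sham, 5 to 7 in cells against ligation and 5 to 7 in cells against sham, and members with ranges that do not overlap ran from 3 to 5, 6 to 7 and 6 to 8. All genes called ran from 4440 to 5373, 954 to 1374 and 5037 to 5695. Of the members that did not pass, some changed sign. In ligation against sham, Fosb was 0.14 with library totals alone, 0.0242 with limma-voom and -0.30 to 0.33 without 1 library, and Jund was 0.11 with library totals alone and -0.14 to 0.0394 without 1 library. In cells against ligation, Fosl1 was -0.0921 to 0.34 without 1 library.

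With the replicate number as a block, 3, 5 and 6 members and 5134, 1230 and 5511 genes passed in the 3 comparisons, Fosb being the member lost (adjusted p 0.0622, edgeR). The mean correlation between deviations of libraries with the same number was 0.0329, -0.01067 and -0.0491 over 9414 genes. Single pairs of ligation and sham libraries were at 0.144, 0.0774 and -0.123. The means therefore do not settle whether libraries with the same number share more than the number. Summing libraries with a shared header stem, added after seeing the data, gave 3, 5 and 6 members. Of 80 values of other list genes, recomputed 1520 times, 86 recomputed values lost the call and 0 changed sign. Depth limits Fosb most, with 4 to 24 counts per library.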
